A study of Mus musculus with 33 samples.

Results

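The receptors for glucocorticoids and a set of stress response genes were followed in the CA1 region of the mouse hippocampus. The 10 genes were the glucocorticoid receptor Nr3c1, the mineralocorticoid receptor Nr3c2, and Fkbp5, Sgk1, Tsc22d3, Zbtb16, Hif3a, Cdkn1a, Plin4 and Sult1a1. They were chosen by name, with earlier results of these data known. All 10 were found by symbol among the 38355 genes of the count files. Each was also found as 1 locus among the 40678 loci of the FPKM files. CA1 RNA had been sequenced from aged female APP/PS1-21 mice given JQ1 (n = 6) or vehicle (n = 6), from aged WT mice given vehicle (5 labelled, 4 with values analysed here), and from young WT mice given JQ1 (n = 8) or vehicle (n = 8).

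APP/PS1-21 mice (named APP mice hereafter) carry a human APP transgene with the Swedish mutation, driven in neurons by the Thy1 promoter, on a C57B/6 background. The aged mice were 8 to 10 months old and received 10 days of intraperitoneal injections, with JQ1 at 50 mg/kg or with a vehicle holding 10% DMSO. The aged WT mice are WT by title, although the strain given for them is that of the transgenic line. The young mice were C57B/6JRj males 3 months of age, injected at the same dose or with vehicle for 13 days. By the study's methods mice were kept in single cages before behavioral testing and were killed on the day after the probe test of the water maze, so handling and injection were shared by all groups. JQ1 is a small molecule that displaces the BET family of bromodomain proteins from acetylated chromatin. Aged WT mice with JQ1 were not analysed here, so the difference with JQ1 in APP mice has no WT counterpart of the same age and sex.

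Corticosterone, the main glucocorticoid of the mouse, enters the brain and acts through both receptors. The mineralocorticoid receptor binds it with high affinity and is abundant in hippocampal neurons, while the glucocorticoid receptor is filled at higher hormone levels, as during stress. The liganded receptor moves to the nucleus and can bind glucocorticoid response elements, and Fkbp5, a co-chaperone that lowers the affinity of the receptor complex for its hormone, is itself induced by the receptor in a feedback loop. Sgk1 encodes a kinase, Tsc22d3 the leucine zipper protein GILZ, and Zbtb16 a zinc finger repressor, all known as glucocorticoid targets. Hif3a is a hypoxia-inducible factor subunit, Cdkn1a encodes the cell cycle inhibitor p21, Plin4 a protein of the lipid droplet coat and Sult1a1 a sulfotransferase of phenols.

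RefSeq promoter windows (GRCm38.p6) were at hand for 8 of the members, in 16 windows reaching 250 bases before a start site. Nr3c1 and Zbtb16 were not among them. The letters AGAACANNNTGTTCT, a palindromic glucocorticoid response element that reads the same on both strands, occurred in 3 of all 32851 windows of this length (0.00913%) and in 1 window of the members, that of Sgk1. Without its last letter, as AGAACANNNTGTTC on either strand, it occurred in 10 windows (0.0304%), and among the members again in 1. This window is shown because it alone holds the full element. It lies on the plus strand at chr10:21993640-21993889 and overlaps no annotated exon of the members. The capitals mark the element.
Sgk1: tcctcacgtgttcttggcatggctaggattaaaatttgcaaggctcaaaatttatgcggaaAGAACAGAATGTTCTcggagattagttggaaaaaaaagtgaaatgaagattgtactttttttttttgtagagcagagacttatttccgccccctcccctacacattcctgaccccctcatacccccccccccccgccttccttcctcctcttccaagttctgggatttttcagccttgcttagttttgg
The half-site AGAACA, contained in the longer letters and searched on both strands, occurred in 5 of the 16 member windows (of Sult1a1, Tsc22d3 and, in 3 windows, Sgk1) and in 16.1% of all windows.

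A pair of libraries stood apart and bear on the results. The library labelled APP JQ1 replicate 4 lacked the marks of the transgenic line. Thy1 stood at 819 CPM there, against 1617 to 2341 CPM in the other 11 APP libraries and 840 to 1069 CPM in WT. CPM are counts per 1e6 reads on genes, with library sizes scaled by the TMM factors of edgeR. Gfap, an astrocyte filament gene that rises around plaques, stood at 322 CPM against 1261 to 5162 and 249 to 321 CPM in the same order. The library labelled APP JQ1 replicate 4 therefore goes against its genotype label by these genes, which were looked at after the values were seen. It was kept under its label, and results that use the group are given with and without it. In WT vehicle replicate 4, Ttr, a choroid plexus gene, reached 3062 CPM against at most 115 CPM in the other 15 aged libraries. Reads on genes ranged from 14605459 to 25339482 in the aged libraries, with medians of 17688038 (APP JQ1), 22341459 (APP vehicle) and 21949993 (WT vehicle). Reads not assigned to a gene had medians of 47.8, 44.5 and 42.4% in the same order. The part of depth in the group differences was not tested. The read depth of the young libraries is unknown, since their values are FPKM (fragments scaled by locus length and by library). The summed CA1 pyramidal cell markers were present at 3893 to 6545 CPM in every aged library.

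Per length of exon, Nr3c2, Sgk1, Tsc22d3, Zbtb16 and Nr3c1 were the higher members in aged WT mice. In aged WT mice Nr3c2 stood at 29.4 ± 2.54 CPM per kilobase (mean ± SD, n = 4), Sgk1 at 28.8 ± 8.02, Tsc22d3 at 17.8 ± 3.19, Zbtb16 at 14.6 ± 1.25 and Nr3c1 at 13.0 ± 1.15, and within this run each gene overlapped its neighbour within 1 SD. Fkbp5 at 8.17 ± 0.416 and Sult1a1 at 6.32 ± 1.08 CPM per kilobase were apart from both of their neighbours. Hif3a at 3.15 ± 0.932, Plin4 at 2.21 ± 1.05 and Cdkn1a at 1.47 ± 0.409 CPM per kilobase formed a low group in which neighbours overlapped. In young vehicle-treated mice, on the FPKM scale and n = 8, the order was Tsc22d3 (38.6 ± 3.54), Nr3c2 (33.8 ± 4.33), Sgk1 (28.6 ± 6.00), Nr3c1 (20.4 ± 1.77), Fkbp5 (18.1 ± 2.27), Zbtb16 (13.7 ± 1.01), Sult1a1 (4.42 ± 1.26), Cdkn1a (2.75 ± 0.349), Hif3a (1.72 ± 0.599) and Plin4 (0.564 ± 0.244). Here Tsc22d3 and Nr3c2, Nr3c2 and Sgk1, and Nr3c1 and Fkbp5 overlapped within 1 SD. The Plin4, Sult1a1 and Nr3c2 loci of the FPKM files reach beyond the annotated genes, that of Nr3c2 the farthest. The annotated Plin4 and Sult1a1 genes also overlap Hdgfl2 and Sgf29 on the other strand, and the strand setting of the counting is not given in the sources used here, so the levels of these genes may hold reads of neighbours. Small antisense or unconfirmed transcripts overlap Fkbp5, Nr3c2, Cdkn1a and Hif3a as well.

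**Figure D1:**
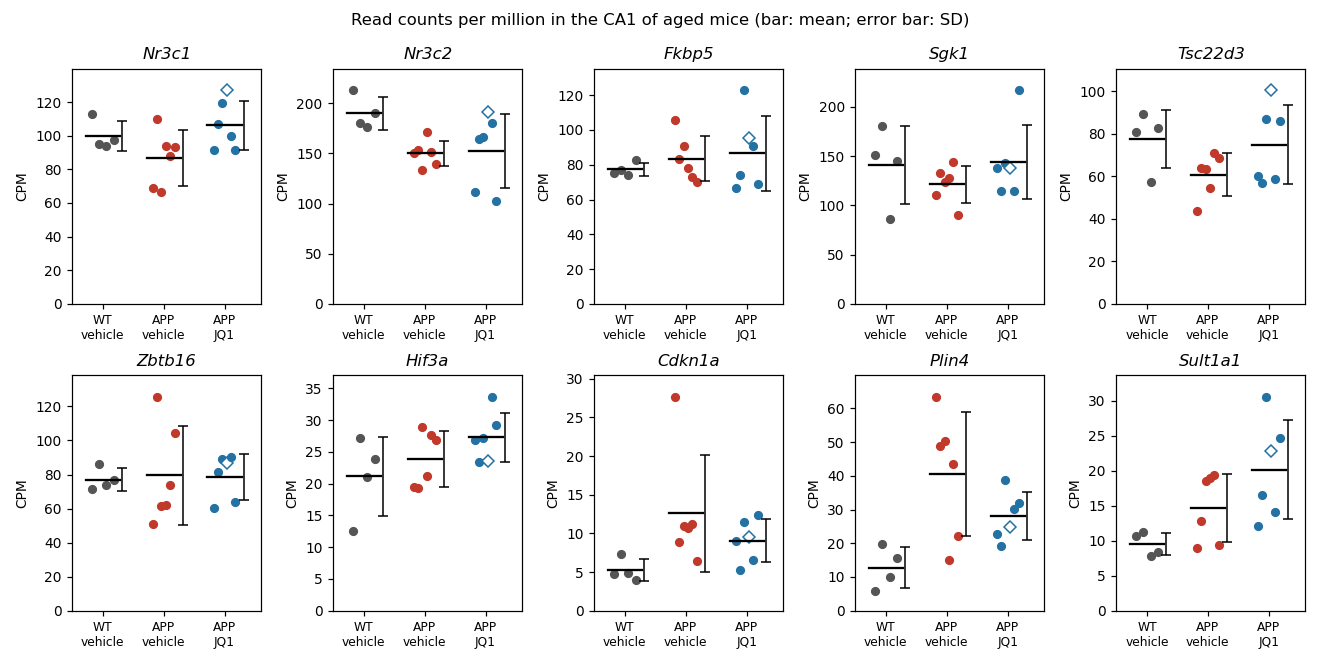
Levels of the 10 members in CPM (vertical axes, from 0) in each aged library, by group, with the mean as a bar and the SD as an error bar. The open diamond is the library labelled APP JQ1 replicate 4. Plin4 ran from 5.87 to 19.7 CPM in WT and from 15.1 to 63.4 CPM in APP vehicle libraries, while Fkbp5 overlapped between all groups.

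The comparison of APP vehicle with WT vehicle mice asks how the transgenic line differs at this age. Plin4 was higher in APP mice, and no other member passed an adjusted p of 0.05. Of all 16962 genes tested with edgeR, 436 did (2.57%), 422 of them higher (2.49%) and 14 lower in APP mice, and of the 10 members 1, which was higher. An unadjusted p under 0.05 was reached by 4 members and by 14.4% of all genes, and the genes past the threshold were 601 (3.55%) without the library labelled APP JQ1 replicate 4 and 154, 186, 244 and 214 without WT vehicle replicate 1, 3, 4 or 5. Plin4 stood at 5.87, 19.7, 9.90 and 15.5 CPM in the WT libraries and at 63.4, 48.9, 50.4, 15.1, 43.4 and 22.2 CPM in the APP vehicle libraries. Of these 6 APP libraries 5 lay above all WT libraries and replicate 4 lay within their range. The means were 40.6 ± 18.4 and 12.8 ± 6.09 CPM, and the fitted log2 fold change was 1.67 (SE 0.40, edgeR adjusted p = 0.0395, two-sided exact permutation p = 0.0190). The call was lost in 10 of 16 fits that left out 1 library each, with adjusted p from 0.0171 to 0.156, and without WT vehicle replicate 4 the log2 fold change was 1.55 with an adjusted p of 0.130. Leaving out the library labelled APP JQ1 replicate 4, which enters only the shared estimate of the spread, gave 1.66 (adjusted p = 0.0450), and DESeq2, with which 2.88% of 27729 genes passed, gave 1.65 (adjusted p = 0.00168).

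Cdkn1a and Nr3c2 came next in this comparison without passing. Cdkn1a stood at 4.73, 7.33, 4.93 and 3.97 CPM in WT and at 27.7, 8.90, 10.9, 10.7, 11.2 and 6.41 CPM in APP vehicle libraries. Replicate 1 alone was above 20 CPM, and 5 of 6 APP libraries exceeded every WT library. The log2 fold change was 1.27 (SE 0.35, edgeR adjusted p = 0.0686), and without APP vehicle replicate 1 it was 0.88 (adjusted p = 0.0926). DESeq2 called it (adjusted p = 0.00580). Nr3c2 stood at 213, 181, 176 and 190 CPM in WT and at 150, 153, 134, 171, 152 and 140 CPM in APP vehicle libraries. It was the only member whose groups did not overlap, where 6.99% of all genes had groups that did not overlap and 2.05% had them with APP lower. The log2 difference was −0.34 (SE 0.14, edgeR adjusted p = 0.276), the exact permutation p of 0.00476 is the smallest that 6 against 4 samples allow, and a fit of these 2 groups alone gave an adjusted p of 0.0373. In the library labelled APP JQ1 replicate 4, Nr3c2 was at 191 CPM, inside the WT range.

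The other members did not pass between APP vehicle and WT vehicle mice either. Nr3c1 was at 94.2 to 113 CPM in WT and 66.6 to 110 CPM in APP libraries (log2 difference −0.20, adjusted p = 0.507). Tsc22d3 was at 57.4 to 89.2 and 43.6 to 70.9 CPM (−0.35, adjusted p = 0.369), and Sult1a1 at 7.84 to 11.2 and 8.91 to 19.4 CPM (0.62, adjusted p = 0.3003). None of these groups was apart from the other. Fkbp5 had a log2 difference of 0.11 with a 95% interval (from the SE, normal approximation) from −0.18 to 0.40, so a change as large as that of Plin4 lies outside the interval. For Sgk1, Hif3a and Zbtb16 the estimates were −0.21, 0.18 and 0.05, with adjusted p from 0.659 to 0.944, and that of Zbtb16 changed sign with corrections for base composition. The Sgk1 estimate was −0.40 without WT vehicle replicate 4 (adjusted p = 0.299) and −0.08 without WT vehicle replicate 3 (adjusted p = 0.913).

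Markers of other cells moved with the genotype. The summed level of 6 microglia markers was 314 to 346 CPM in WT, 608 to 1098 CPM in APP vehicle and 346 to 1116 CPM in APP JQ1 libraries, and among them Cx3cr1, Csf1r and C1qa rose in both groups of APP mice against WT (log2 fold changes of 1.18 to 2.51 with vehicle and 1.18 to 2.03 with JQ1). The sum of 6 astrocyte markers was 3403 to 3756, 5321 to 8375 and 4129 to 8971 CPM in the same order. Gfap rose in both (3.18 and 2.92), and in JQ1-treated APP mice so did Aqp4, a water channel (0.86, edgeR adjusted p = 0.0259), and Slc1a3, a glutamate transporter (0.49, adjusted p = 0.0329). The sum of 6 interneuron markers was lower in most APP libraries, at 887 to 990 CPM in WT, 726 to 934 CPM in APP vehicle and 692 to 920 CPM in APP JQ1 libraries. All 6 had negative estimates in both comparisons with WT (medians −0.20 and −0.28), of which only Sst, which encodes somatostatin, passed, in JQ1-treated APP mice (−0.48, edgeR adjusted p = 0.0291). No marker of these 3 lists was at 0. The lowest value of the microglia and astrocyte sums among APP libraries was that of the library labelled APP JQ1 replicate 4, where Plin4 stood at 24.8, Cdkn1a at 9.59 and Sult1a1 at 22.8 CPM, above all WT libraries for each. The part of these cells in the differences of Plin4, Cdkn1a, Nr3c2 and Sult1a1 was not tested, and in bulk tissue fewer cells of a type and less RNA per cell cannot be told apart.

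JQ1 against vehicle in APP mice asks what the drug changed in these receptors and targets. None of the 10 members passed, where 184 of 16962 genes did (1.08%), 105 higher and 79 lower with JQ1. At an unadjusted p under 0.05 the count was 1 of 10 members, Nr3c1, against 17.6% of all genes, and DESeq2 called 0 members and 2.7% of genes. Without the library labelled APP JQ1 replicate 4 the genes past the threshold were 73 (0.431%) and the members 0. Over the 16 fits without 1 library each the genes past the threshold ran from 65 (without APP JQ1 replicate 2) to 446 (without WT vehicle replicate 1). No member had groups that did not overlap, against 2.03% of all genes.

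Nr3c1 had the smallest p of the members with JQ1. It stood at 69.1, 110, 66.6, 94.0, 87.9 and 93.2 CPM in vehicle and at 91.6, 107, 119, 127, 99.8 and 91.8 CPM in JQ1 libraries. The highest of the JQ1 values was the library labelled APP JQ1 replicate 4, and the groups overlapped. The log2 fold change was 0.29 (SE 0.12, edgeR adjusted p = 0.204, exact permutation p = 0.0606), and without that library 0.24 (SE 0.12, adjusted p = 0.399). With the correction for GC content and length it was 0.13 (adjusted p = 0.699). Nr3c2 differed by 0.02 with a 95% interval from −0.23 to 0.28, and by −0.05 without that library. Its JQ1 libraries were spread from 102 to 191 CPM and its vehicle libraries from 134 to 171 CPM.

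Among the targets, Fkbp5 was at 69.9 to 105 CPM with vehicle and 66.7 to 123 CPM with JQ1 in APP mice, a log2 difference of 0.05 with a 95% interval from −0.21 to 0.31. Sgk1 differed by 0.25 (adjusted p = 0.487), with JQ1 replicate 6 at 217 CPM and the other 5 JQ1 libraries at 114 to 144 CPM, and by 0.09 (adjusted p = 0.791) without JQ1 replicate 6. Tsc22d3 was at 43.6, 64.0, 63.3, 54.4, 70.9 and 68.3 CPM with vehicle and at 60.0, 56.6, 86.7, 100.5, 58.7 and 85.7 CPM with JQ1. Of the JQ1 libraries 3 lay above all vehicle libraries, the highest being the library labelled APP JQ1 replicate 4 (log2 difference 0.30, adjusted p = 0.342; without it 0.20, adjusted p = 0.608). Hif3a differed by 0.19 and Zbtb16 by −0.02, and the Zbtb16 estimate took the other sign with corrections for base composition.

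Plin4 and Cdkn1a had lower means with JQ1 in groups that overlapped, and neither passed. Plin4 stood at 22.7, 19.2, 38.9, 24.8, 30.3 and 31.9 CPM with JQ1, all inside the vehicle range (log2 difference −0.54, 95% interval −1.20 to 0.12, adjusted p = 0.432). Cdkn1a was at 5.32 to 12.4 CPM with JQ1 (−0.48, adjusted p = 0.428), and without APP vehicle replicate 1 the difference was −0.09. Sult1a1 stood at 12.1, 16.6, 30.5, 22.8, 14.1 and 24.7 CPM with JQ1 and at 8.91, 12.8, 18.6, 19.0, 19.4 and 9.39 CPM with vehicle. Of the JQ1 libraries 3 exceeded all vehicle libraries (log2 difference 0.45, adjusted p = 0.341; without the library labelled APP JQ1 replicate 4, 0.42, adjusted p = 0.499).

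JQ1-treated APP mice were also set against WT vehicle mice. This comparison shares its groups with the other comparisons in aged mice. None of the members passed with edgeR, against 2.06% of all genes (349 of 16962), while 4 members and 14.1% of all genes had an unadjusted p under 0.05. DESeq2 called 1 member, Sult1a1 (adjusted p = 0.00330), and 2.89% of genes. All 6 libraries labelled APP JQ1 lay above the WT values of Sult1a1, which were 10.6, 11.2, 7.84 and 8.44 CPM, and this was the only member whose groups did not overlap, against 3.71% of all genes in either direction and 2.55% with JQ1-treated APP mice higher. The log2 fold change was 1.08 (SE 0.28, edgeR adjusted p = 0.0538, exact permutation p = 0.0143), without the library labelled APP JQ1 replicate 4 it was 1.03 (adjusted p = 0.0630), and without WT vehicle replicate 4 it was 0.99 (adjusted p = 0.183). Plin4 differed by 1.13 (adjusted p = 0.184), or 1.16 without the library labelled APP JQ1 replicate 4 (adjusted p = 0.193). Nr3c2 differed by −0.32 (adjusted p = 0.325), and by −0.40 without it (adjusted p = 0.156). The count of genes past the threshold was 651 (3.84%) without the library labelled APP JQ1 replicate 4 and 153, 25, 30 and 11 without WT vehicle replicate 1, 3, 4 or 5. Without APP JQ1 replicate 1, 2 or 6 it was 198, 183 and 222.

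**Figure D2:**
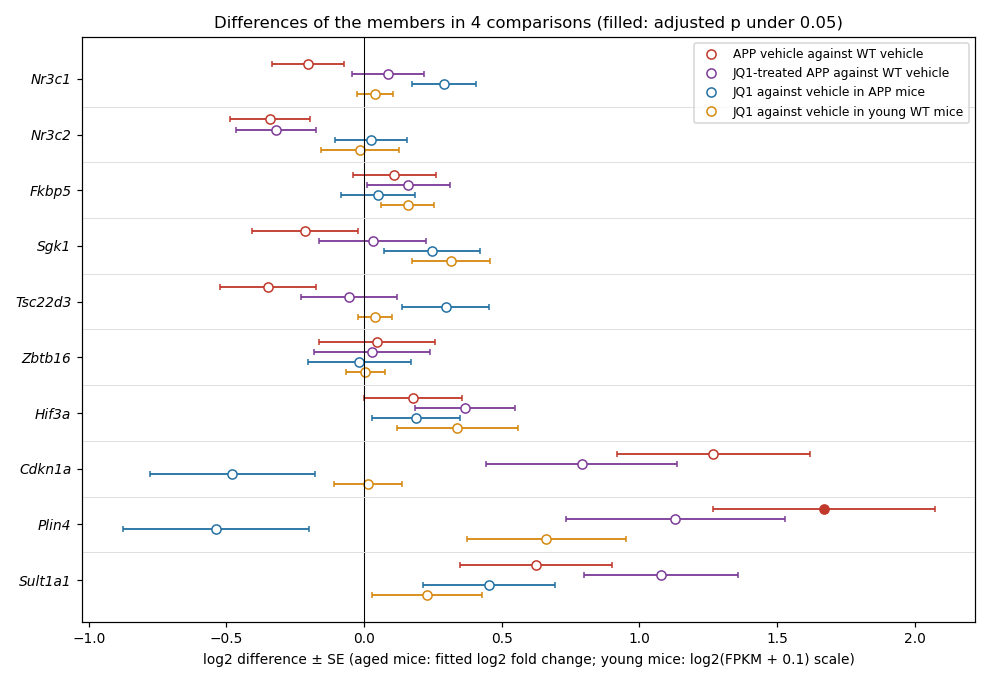
Log2 differences of each member (horizontal axis, points with SE bars) in 4 comparisons, with fitted log2 fold changes for aged mice and the log2(FPKM + 0.1) scale for young mice. The 1 filled point is Plin4 in APP vehicle against WT vehicle mice (log2 1.67), and all open points missed an adjusted p of 0.05.

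In young WT mice JQ1 left no member past the threshold. Of 18420 loci tested with limma on log2(FPKM + 0.1), 1 passed (0.00543%), and 857 had an unadjusted p under 0.05 (4.65%), among them 2 members, Plin4 and Sgk1. No member had groups that did not overlap, against 0.0271% of loci. Plin4 had its lowest, median and highest values at 0.250, 0.510 and 0.964 FPKM with vehicle and at 0.499, 0.804 and 2.63 FPKM with JQ1. The highest, JQ1 replicate 3, stood far from the other 7, and only 2 JQ1 values exceeded all vehicle values. The log2 difference was 0.66 (SE 0.29, limma adjusted p = 0.981), and without JQ1 replicate 3 it was 0.45 (adjusted p = 0.999). Sgk1 was at 22.7, 26.1 and 38.2 FPKM with vehicle and at 28.004, 34.2 and 58.1 FPKM with JQ1 (0.32, SE 0.14, limma adjusted p = 0.981), and without JQ1 replicate 3 the difference was 0.21.

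The receptors of young mice were close between treatments. Nr3c1 had a log2 difference of 0.04 with a 95% interval from −0.09 to 0.17, and Tsc22d3 of 0.04 with an interval from −0.08 to 0.16. Nr3c2 differed by −0.01, and its JQ1 values had an SD of 9.64 FPKM against 4.33 FPKM with vehicle, with 3 JQ1 mice above all vehicle mice. Fkbp5 was at 12.8, 19.0 and 19.6 FPKM with vehicle and at 16.03, 20.7 and 22.8 FPKM with JQ1 (lowest, median, highest), and 4 of 8 JQ1 mice exceeded all vehicle mice (0.16, limma adjusted p = 0.981). For Hif3a, Sult1a1, Cdkn1a and Zbtb16 the log2 differences were 0.34, 0.23, 0.01 and 0.00, none past the test, and without JQ1 replicate 3 that of Sult1a1 was 0.06. The young and the aged mice differed in age, sex, number of injections and the unit of the deposited values, so no test was made between them.

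**Figure D3:**
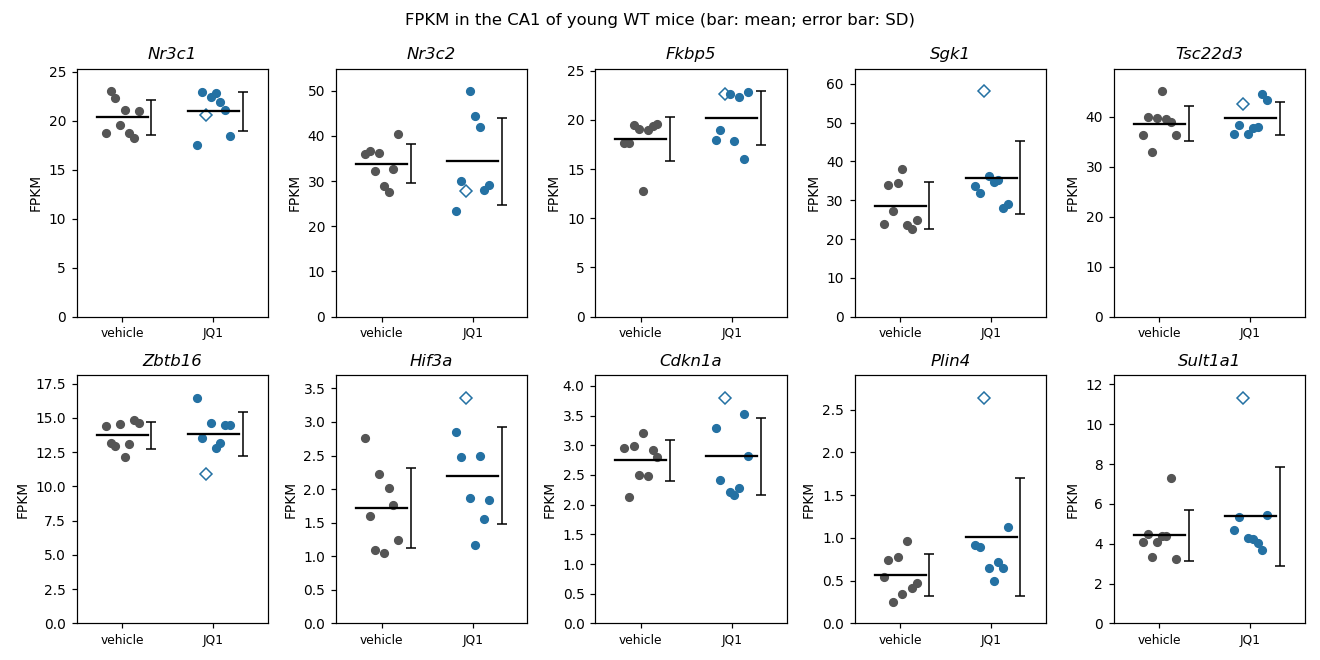
Levels of the 10 members in FPKM (vertical axes, from 0) in each young WT mouse, by treatment, with the mean as a bar and the SD as an error bar. The open diamond is JQ1 replicate 3, the highest JQ1 mouse for 5 members (Sgk1, Hif3a, Cdkn1a, Plin4 and Sult1a1) and the lowest for Zbtb16.

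Further genes of the pathway were taken from lists. Of 26 further glucocorticoid-induced genes (such as Per1, Klf9 and Ddit4), 0 passed with JQ1 in APP mice and 0 of the 25 tested passed in young mice. In APP vehicle against WT vehicle mice 1 of the 26 rose, Lcn2, a lipocalin also made by reactive astrocytes, and in JQ1-treated APP against WT mice 2 rose, Lcn2 and Fam107a. Lcn2 was at 0 to 0.379 CPM in WT, 0.0445 to 4.15 CPM in APP vehicle and 0.533 to 3.95 CPM in APP JQ1 libraries (edgeR adjusted p = 0.0424 and 0.0353). The WT values lie around the floor of 3 counts, which is 0.118 to 0.205 CPM per library before TMM factors, so no fold is given. Both Lcn2 calls missed the threshold without a filter on low counts (adjusted p = 0.0962 and 0.0824), and in fits that left out 1 library each they passed in 5 and 8 of 16, with adjusted p up to 0.158 and 0.138. Fam107a, an actin-binding protein known as a stress-responsive gene of the brain, was at 231 to 273 CPM in WT, 236 to 352 CPM in APP vehicle and 293 to 437 CPM in APP JQ1 libraries (log2 0.57 against WT, adjusted p = 0.0172; 0.56 and 0.0132 without the library labelled APP JQ1 replicate 4). The median log2 difference of this list was −0.04 with JQ1 in APP mice, 0.14 in APP vehicle against WT vehicle mice, 0.13 in JQ1-treated APP against WT vehicle mice and 0.08 with JQ1 in young mice, where the medians of all genes lay between −0.00 and 0.01.

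Among 29 relatives of the members, Plin2, the lipid droplet coat protein found in most cells, rose in APP mice beside Plin4. It was at 4.69 to 5.62 CPM in WT, 6.94 to 14.5 CPM in APP vehicle and 5.19 to 15.0 CPM in APP JQ1 libraries, the lowest of the last being the library labelled APP JQ1 replicate 4. The log2 fold changes against WT were 1.11 with vehicle (edgeR adjusted p = 0.0209) and 1.11 with JQ1 (adjusted p = 0.0272; without that library 1.24, adjusted p = 0.00124). Tsc22d4, a relative of Tsc22d3, also rose in APP vehicle mice, from 69.8 to 82.5 CPM in WT to 88.4 to 141 CPM (0.62, adjusted p = 0.0192), and with the correction for GC content and length the estimate was 0.44 and missed the threshold (adjusted p = 0.0980). In fits that left out 1 library each, Plin2 passed in 11 of 16 with vehicle and 9 of 16 with JQ1, Tsc22d4 in 13 of 16 and Fam107a in 13 of 16. Leaving out WT vehicle replicate 1, 3, 4 or 5 each ended both Plin2 calls, without replicate 1, 4 or 5 that of Tsc22d4 was lost, and without replicate 3, 4 or 5 that of Fam107a, with adjusted p up to 0.102. Of 15 hypoxia-inducible genes 1 rose in JQ1-treated APP against WT mice, Pdk1, a kinase that restrains pyruvate oxidation (0.46, adjusted p = 0.0148), and without WT vehicle replicate 3, 4 or 5 it did not pass (adjusted p up to 0.0787). Of the hypoxia-inducible genes no other passed. Of the 20 p53 pathway genes and the 15 genes of steroid handling and the CRH system, 18 and 11 were tested in aged mice and none passed in any comparison.

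Fkbp5 is often read as a gauge of glucocorticoid action, so every gene was also fitted against Fkbp5 from mouse to mouse within groups. No gene passed, in 16961 tested in aged and 18419 in young mice, and at an unadjusted p under 0.05 the counts were 1747 (10.3%) and 1166 (6.33%). Plin4 had the steepest slope of the members, with 1.19 log2 units per log2 unit of Fkbp5 in aged mice (SE 0.56, edgeR adjusted p = 0.486) and 1.11 in young mice (SE 0.73, limma adjusted p = 0.879), with an unadjusted p of 0.0521 in aged mice. The only member with an unadjusted p under 0.05 was Nr3c2 in aged mice (slope 0.51, SE 0.23, edgeR adjusted p = 0.473). All 6 oligodendrocyte markers had negative slopes on Fkbp5 in aged mice with an unadjusted p under 0.05 (median −0.66). In young mice 0 of the 5 tested reached an unadjusted p under 0.05 (median slope −0.10). The part of these markers in the relations with Fkbp5 was not tested. As deviations from group means over the 16 aged mice, Plin4 and Fkbp5 had a Pearson r of 0.49 (permutation p = 0.0223). Their Spearman rho was 0.62 (permutation p = 0.00529). Their r was 0.33 without the 2 mice farthest from the median of Fkbp5, so part of the relation rests on them. In the 16 young mice r was 0.37 (permutation p = 0.185) and rho 0.24 (permutation p = 0.372). The relations of Plin4 were 2 of 18 such relations. Nr3c2 had a larger r with Fkbp5 in the aged mice, 0.53 (permutation p = 0.165), and 0.63 without the same 2 mice. Its rho was 0.42 (permutation p = 0.190), and in young mice its r was 0.33 (permutation p = 0.230).

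**Figure D4:**
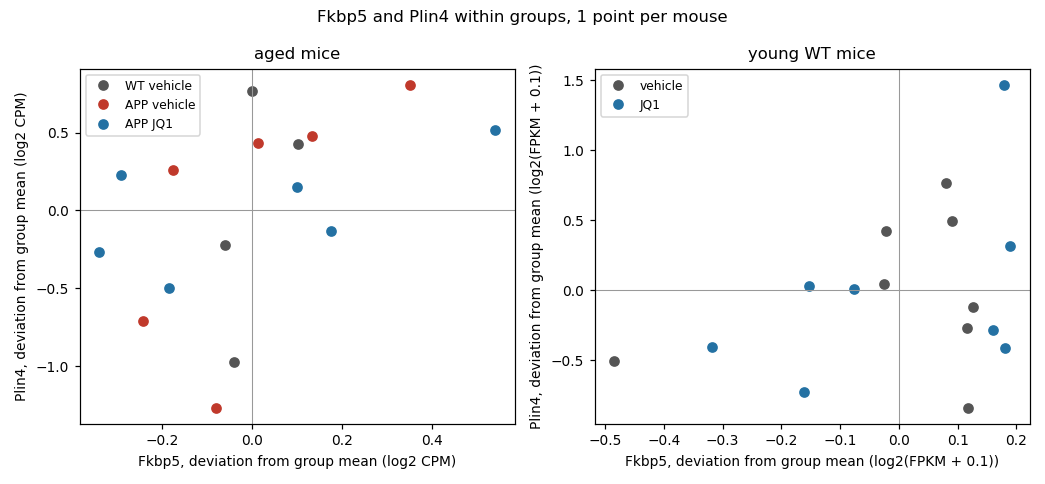
Deviations of Plin4 (vertical axes) from its group mean against those of Fkbp5 (horizontal axes), 1 point per mouse, in log2 CPM for 16 aged mice and in log2(FPKM + 0.1) for 16 young mice. Pearson r was 0.49 in aged and 0.37 in young mice.

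Of the 45 pairs of members, the 3 highest by the lower of the r in aged and in young mice were Nr3c1 and Nr3c2 (0.59 in aged and 0.55 in young mice), Hif3a and Plin4 (0.45 and 0.71) and Sgk1 and Sult1a1 (0.59 and 0.44). The last 2 pairs include genes that were highest in young JQ1 replicate 3. The most negative r of a pair in young mice were those of Nr3c2 and Cdkn1a (−0.69, and −0.21 in aged mice) and of Sgk1 and Zbtb16 (−0.66 and −0.15). The genes most like each member were named by the lower of the 2 values of r, over 16 aged and 16 young mice and 11909 genes. For Nr3c1 they were Dpp8, Pias1 and Cpeb4, and for Nr3c2 Nckap1, Ppm1e and Cnksr2, with r from 0.85 to 0.91 and from 0.86 to 0.90. For Zbtb16 they were Zc3h13, Dvl3 and Pik3c2b (0.77 to 0.84), for Fkbp5 Sec23ip, Gapdh and Sertm1 (0.71 to 0.80), and for Plin4 Mfsd2a, Idh2 and Grrp1 (0.62 to 0.72). Sgk1 had Pglyrp1, Arl4d and Hexim2, Tsc22d3 had Stmn4, Auh and Ing1, Hif3a had Mertk, Ap2a1 and Nprl3, Cdkn1a had Tmem159, Il4ra and Rsph3a, and Sult1a1 had Pxmp2, Clec2d and Apoc1, with r from 0.51 to 0.84. These values share library, depth and base composition. The 3 genes named for Nr3c1 had exonic GC contents of 39.3 to 44.5% beside 42.2% in Nr3c1, and those named for Plin4 54.2 to 64.4% beside 55.9% in Plin4. For Sgk1, Tsc22d3 and Nr3c2 the GC content of the member (48.6, 48.3 and 47.5%) lay outside that of its 3 genes (53.6 to 55.7%, 49.7 to 55.4% and 43.7 to 45.9%), and the part of base composition in the likeness was not tested.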

How the data were processed

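RNA of microdissected CA1 was sequenced on a HiSeq2000. By the labels and methods the authors aligned reads to mm10 with STAR (at most 2 mismatches), and the labels also name CASAVA 1.8.2, HTSeq, TopHat, Cufflinks and Cuffdiff. The deposited aged files hold counts of whole reads per Ensembl gene from htseq, 1 file per mouse. Of the listed reads 40.6 to 52.9% were not assigned to a gene and were left out of library sizes. Most of these aligned to several places (26.7 to 36.4% of listed reads), and the others include reads on no gene or on several. The deposited young files hold FPKM per merged locus made by the authors with Cufflinks; which aligner served them is not given in the sources used here. FPKM carries no depth.

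Samples were grouped by the labels; of the aged WT mice replicate 2 was not analysed here. Counts were tested with edgeR 4.0.16 (TMM, filterByExpr, robust quasi-likelihood F test) in 1 fit of 16 aged libraries. FPKM was tested with limma 3.58.1 (trend, robust) on log2(FPKM + 0.1) where FPKM reached 0.5 in at least 8 of 16 mice; fold changes on this scale understate changes of low genes. Benjamini-Hochberg adjusted p under 0.05 over all genes was the threshold. CPM printed per library are scaled to reads on genes, with TMM factors applied to the library sizes. Permutation tests were two-sided, exact for group differences and with 100000 draws within groups for correlations. All 10 members passed both filters. The alternatives were DESeq2 1.42.0, other filters and scalings, fits of 2 groups, a replicate block, a correction for GC content and length (5 df splines), and leaving out libraries; leaving out both libraries in doubt was chosen after seeing the data. Exon lengths and GC contents came from GENCODE M21 (GRCm38). Scripts were tested on simulated data. The members and lists were chosen with earlier results of these data known. Named genes were the 10 members, every pathway list gene or cell marker past the threshold except results that are not reported here, and for each member the 3 genes of highest likeness. The labels do not name the animals, so p-values measure the spread between these samples.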

Additional observations from a re-analysis of the deposited data

Results flagged for a closer look

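Of the 50 sets of values (10 members in 5 groups), 7 held a mouse far from the others of its group by a gap test at the 95% level, and chance alone flags about 1 in 20 sets. In young mice given JQ1, replicate 3 had the highest Sgk1 (58.1 FPKM, next 36.2), Plin4 (2.63 FPKM, next 1.13) and Sult1a1 (11.3 FPKM, next 5.44), so 3 of the 7 fell on 1 mouse. Its summed astrocyte and microglia markers, 693 and 124 FPKM, were the lowest of the young JQ1 group, and its summed endothelial markers, 84.7 FPKM, were the highest of all 16 young mice. In young vehicle mice Fkbp5 was low in replicate 5 (12.8 FPKM, next 17.6) and Sult1a1 high in replicate 7 (7.30 FPKM, next 4.50). In APP mice given JQ1, replicate 6 had the highest Sgk1 (217 CPM, next 144), and in APP vehicle mice replicate 1 had the highest Cdkn1a (27.7 CPM, next 11.2).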

How the results depend on the processing

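The Plin4 and Lcn2 calls in APP vehicle against WT vehicle mice passed in 6 and 5 of the 16 single-library fits. Plin4 also missed the threshold without a filter on low counts (adjusted p = 0.0958), with only these 2 groups (0.0758), with the GC and length correction (0.0596) and without both libraries in doubt (0.134), and Lcn2 without a filter (0.0962) and with the replicate block (0.226). With 4 WT mice, 1 of them holding choroid plexus transcripts, and 1 APP library without the marks of its genotype, differences of the size seen for Nr3c1 or Tsc22d3 are not settled at this number of mice.

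Genes past the threshold in JQ1 against vehicle (APP mice), APP vehicle against WT and JQ1-treated APP against WT numbered 749, 798 and 800 with DESeq2, 679 and 227 with only the 2 groups (the last 2 comparisons), and 65 to 446, 154 to 601 and 11 to 651 without 1 library each. With the GC and length correction they were 42 (35 higher, 7 lower, against 105 and 79), 452 (374 and 78, against 422 and 14) and 517 (338 and 179, against 327 and 22), and the median of all genes against WT shifted to −0.07 and −0.08. Without both libraries in doubt they were 57, 485 and 493. The deviations of same-numbered libraries from their group means had a mean correlation of −0.02 in aged mice, with 4 of 14 pairs over 0.1. In young mice it was 0.03, with 1 of 8. The aged mean pools pairs of APP JQ1 with APP vehicle (−0.11 to 0.34) and pairs with WT (−0.47 to 0.22). It therefore cannot tell whether replicate numbers pair the mice. The replicate block gave 87, 35 and 21, and with the GC and length correction 33, 29 and 36; 0 members passed with the block, where Plin4 had an adjusted p of 0.0941. In young mice 0 loci passed with the block, 0 without a filter and 0 to 2 without 1 mouse. The Fkbp5 fits called 19 genes in aged mice with the GC and length correction, 0 to 16 and, in young mice, 0 to 1 without 1 mouse. Members past the threshold in APP vehicle against WT numbered 2 with DESeq2, 0 without a filter, with the GC and length correction or without both libraries in doubt, and 0 to 2 without 1 library; in JQ1-treated APP against WT 1 with DESeq2, 1 with at least 10 counts in every sample, and 0 to 1 without 1 library. On CPM without TMM factors 1 member, Nr3c1, reached an exact permutation p under 0.05 with JQ1 in APP mice.

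The Plin4 difference in APP vehicle against WT mice kept its sign in all alternatives, and estimates near 0 changed theirs. Against vehicle in APP mice Nr3c2 was −0.0176 with the GC and length correction, −0.0409 with the block added and −0.0469 without both libraries in doubt, and Zbtb16 was 0.0410 with the block, 0.11 with the correction and 0.16 with both. In APP vehicle against WT Zbtb16 was −0.14, −0.10 and −0.28 in that order. In JQ1-treated APP against WT Sgk1 was −0.0401 with the correction, −0.0436 with the block added and −0.14 without both libraries in doubt, Nr3c1 was −0.0405, −0.0733 and −0.00872, and Zbtb16 was −0.10 with the block, −0.12 with the block and correction and −0.0327 without both libraries. In young mice Zbtb16 was −0.00319 with median-ratio rescaling. Slopes on Fkbp5 in aged mice were 0.0410 (Sgk1), −0.0286 (Nr3c1), 0.0599 (Hif3a) and −0.0508 (Zbtb16) with the correction, −0.13 (Sult1a1) with the block and −0.00510 (Tsc22d3) without both libraries. Without 1 library each, JQ1 against vehicle in APP mice ranged from −0.0718 to 0.13 for Fkbp5, −0.0456 to 0.12 for Nr3c2 and −0.12 to 0.16 for Zbtb16; APP vehicle against WT from −0.0158 to 0.31 for Hif3a and −0.15 to 0.15 for Zbtb16; JQ1-treated APP against WT from −0.15 to 0.17 for Sgk1, −0.18 to 0.0217 for Tsc22d3 and −0.0166 to 0.0906 for Zbtb16; young mice from −0.10 to 0.0568 for Nr3c2, −0.0505 to 0.0614 for Cdkn1a and −0.0325 to 0.0511 for Zbtb16. Aged slopes ranged from −0.29 to 0.15 (Sgk1), −0.0550 to 0.40 (Tsc22d3), −0.0608 to 0.30 (Nr3c1), −0.16 to 0.0642 (Hif3a), −0.17 to 0.86 (Sult1a1) and −0.11 to 0.44 (Zbtb16), and young slopes from −0.39 to 0.61 (Sgk1) and −0.25 to 0.16 (Zbtb16). The cause of these shifts was not tested.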
